A study of Mus musculus with 14 samples.

Results

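The genes described here are 10 transcripts that neurons raise quickly after they are active: Arc, the nuclear receptors Nr4a1, Nr4a2 and Nr4a3, and Btg2, Ier2, Ier5, Dusp1, Bdnf and Arl4d. They were taken by symbol from a count table of 48440 mouse genes, in which all 10 were found, and all 10 passed the filter on low counts that left 24680 genes for testing. Bulk RNA-seq was made from cerebellum, cerebral cortex (titled Cerebrum) and hippocampus of CARIP-/- mice and of wild-type mice, all C57BL/6. The knockout (CARIP-/-) gave 3 cerebellar, 2 cortical and 2 hippocampal libraries and the wild type gave as many. Age, sex, the design of the deletion and the number of animals behind each library are not given in the labels, so p-values measure the spread between these libraries, which may be technical in part.

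Immediate early genes are switched on within minutes of synaptic activity, without new protein synthesis, when calcium entry and the MAP kinase and CREB pathways act on transcription factors already bound at their promoters. Arc encodes a synaptic protein that promotes removal of AMPA receptors from the surface. The NR4A proteins are orphan nuclear receptors that act as transcription factors, and Btg2, Ier2 and Ier5 encode further early regulators of transcription and growth. Dusp1 is a phosphatase that switches MAP kinases off again, and it also responds to glucocorticoids and stress. Bdnf encodes a secreted neurotrophin whose many promoters are partly driven by activity, and Arl4d is a small GTPase of the ARF family.

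Libraries held 20.1 to 38.8 M counted reads, and CARIP itself, which the annotation lists under neither a symbol nor an alias, is given no level here. Tissue markers matched the labels: 12 markers of excitatory forebrain neurons summed to 551 to 655 CPM in the cerebellar libraries and to 5100 to 6940 CPM in the others. A set of 10 markers of cerebellar granule and Purkinje cells summed to 5100 to 8590 CPM in cerebellum and 862 to 1370 CPM elsewhere. Among the cortical libraries, knockout 2 differed most in its markers. It held 1300 CPM of striatal markers against 250 to 366, 1090 CPM of choroid plexus markers against 237 to 283 and 5700 CPM of oligodendrocyte markers against 1770 to 3640. Wild-type cerebellum 2 held 8930 CPM of oligodendrocyte markers against 2260 to 4300 in the other cerebellar libraries. Wild-type cerebellum 1 held 130 CPM of choroid plexus markers against 1220 to 2030 in the others. CPM values here use library totals scaled by TMM. In bulk tissue, fewer cells of a type and less RNA per cell cannot be told apart.

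The promoter windows show a sequence feature that the choice of genes did not use. RefSeq windows (GRCm38.p6) were found for 8 of the 10 genes, all but Arc and Ier2, and the 250 bases before each start were searched on both strands. The palindrome TGACGTCA, the cAMP response element (CRE) recognised by CREB, was present in 3 of these 8 genes, Btg2, Dusp1 and Arl4d. Counted by window, it was in 3 of the 14 windows of these genes and in 508 of all 32851 windows (1.55%). These 3 promoters are shown because they hold the full element, which is in capitals together with other copies of its core, TGACG or CGTCA. Each line runs 5′ to 3′ on the strand of the gene: Btg2 is chr1:134079156-134079405, minus strand, Dusp1 chr17:26508520-26508722, minus strand, and Arl4d chr11:101665291-101665540, plus strand. Dusp1 is printed up to the nearest annotated exon, which leaves out the last 47 bases of its window.
Btg2 promoter: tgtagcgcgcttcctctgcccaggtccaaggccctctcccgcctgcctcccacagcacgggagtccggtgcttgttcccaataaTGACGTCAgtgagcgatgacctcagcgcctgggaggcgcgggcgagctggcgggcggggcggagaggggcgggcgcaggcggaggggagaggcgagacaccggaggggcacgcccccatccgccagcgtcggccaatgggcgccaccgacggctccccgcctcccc
Dusp1 promoter: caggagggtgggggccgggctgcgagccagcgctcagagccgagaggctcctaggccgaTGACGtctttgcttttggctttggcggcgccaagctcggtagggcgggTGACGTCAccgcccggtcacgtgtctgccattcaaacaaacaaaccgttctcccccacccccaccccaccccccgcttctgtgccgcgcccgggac
Arl4d promoter: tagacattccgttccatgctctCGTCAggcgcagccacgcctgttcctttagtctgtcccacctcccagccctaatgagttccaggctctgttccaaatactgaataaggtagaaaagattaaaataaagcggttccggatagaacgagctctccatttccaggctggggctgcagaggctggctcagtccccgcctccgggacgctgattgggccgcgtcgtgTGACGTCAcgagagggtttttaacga
Counted back from the RefSeq start, the element begins at -166 in Btg2, at -143 in Dusp1 and at -26 in Arl4d.

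The core alone (5 bases, either strand, also counted inside the full element) was found in 7 of the 8 genes. By window this was 7 of 14, against 17.8% of all windows. The 3 Nr4a promoters each held 4 copies and no full element, and are shown for that arrangement, with the core in capitals. Nr4a1 is chr15:101266596-101266845, plus strand, Nr4a2 is chr2:57124004-57124253, minus strand, and Nr4a3 is chr4:48045055-48045152, plus strand. The Nr4a3 window is printed only up to its first annotated exon, so the copy that begins at -147 falls outside the printed stretch.
Nr4a1 promoter: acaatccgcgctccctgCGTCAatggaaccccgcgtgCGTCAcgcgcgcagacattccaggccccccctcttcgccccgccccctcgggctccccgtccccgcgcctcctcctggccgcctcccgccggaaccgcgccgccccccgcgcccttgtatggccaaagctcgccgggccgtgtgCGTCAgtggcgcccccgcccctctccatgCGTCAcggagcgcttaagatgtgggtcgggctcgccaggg
Nr4a2 promoter: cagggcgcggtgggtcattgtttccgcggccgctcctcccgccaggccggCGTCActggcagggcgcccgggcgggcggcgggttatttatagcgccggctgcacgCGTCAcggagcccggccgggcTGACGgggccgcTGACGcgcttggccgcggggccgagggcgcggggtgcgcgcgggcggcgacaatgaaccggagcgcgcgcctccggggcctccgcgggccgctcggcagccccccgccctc
Nr4a3 promoter: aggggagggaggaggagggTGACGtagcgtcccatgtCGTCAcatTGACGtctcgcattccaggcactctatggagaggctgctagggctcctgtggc
Copies begin at -233, -213, -69 and -40 in Nr4a1, at -200, -144, -123 and -111 in Nr4a2, and at -231, -213, -205 and -147 in Nr4a3.

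Bdnf, which has many alternative first exons, has 7 RefSeq windows. Of these only the window at chr2:109692186-109692435 (plus strand) held the core, which begins at -35 and is in capitals.
Bdnf promoter: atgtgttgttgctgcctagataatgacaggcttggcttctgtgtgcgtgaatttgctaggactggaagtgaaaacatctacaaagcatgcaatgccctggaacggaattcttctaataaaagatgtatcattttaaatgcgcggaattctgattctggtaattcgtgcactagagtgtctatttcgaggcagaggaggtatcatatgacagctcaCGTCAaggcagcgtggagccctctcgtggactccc
Ier5 held neither form. No window of the 8 genes matched the CArG box of serum response factor (1.47% of all windows), the NR4A binding element AAAGGTCA (1.34%) or the palindromic glucocorticoid response element (0.00913%). An EGR site, GCGGGGGCG on the opposite strand, was found in Nr4a1 (2.57% of all windows). The loose AP-1-like pattern TGANTCA, with any base in the middle, was matched by TGAATCA in another Bdnf window (6.75%). Nr4a2 held a MEF2 site (2.92%) with an overlapping TATAAA on the opposite strand (12.4%). A match is a run of letters and was not tested as a binding site.

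Several of the 10 genes are compact. Ier2 (chromosome 8, 84661331 to 84662852, minus strand) and Ier5 (chromosome 1, 155096361 to 155099636, minus strand) have no intron. Arl4d (chromosome 11, 101665541 to 101667832, plus strand), Btg2 (chromosome 1, 134075170 to 134079120, minus strand) and Bdnf (chromosome 2, 109674700 to 109727007, plus strand) have 1 intron in their longest coding transcript. Thus 5 of 10 had at most 1 intron, against 9.4% of 16121 tested protein-coding genes. Arc (chromosome 15, 74669083 to 74672570, minus strand) has 2 introns and a span of 3488 bp, and 5 of the 10 spans were under 4000 bp, against 8.92% of those genes. Nr4a1 (chromosome 15, 101254269 to 101274795, plus strand), Nr4a2 (chromosome 2, 57106830 to 57124003, minus strand) and Nr4a3 (chromosome 4, 48045153 to 48086447, plus strand) have 7 introns each, the median of the tested coding genes. Dusp1 (chromosome 17, 26505590 to 26562128, minus strand) has 3. Its span of 56539 bp is that of GENCODE M21 and reaches well past its RefSeq promoter window at 26508473 to 26508722. Whether Dusp1 counts as a short gene therefore depends on the annotation. Exons of Bdnf overlap those of the antisense gene Gm45346 over 896 bp, and whether counting used strand is not given in the sources used here, so some Bdnf reads may be antisense.

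Between cortex and cerebellum 5 of the 10 genes passed, close to the 48.4% of all tested genes, and between hippocampus and cerebellum 9 did, against 47.3%. Arc, Nr4a1, Ier5, Bdnf and Arl4d were higher in cortex than in cerebellum, and in hippocampus those 5 were higher than in cerebellum together with Nr4a2 and Nr4a3. Ier2 and Dusp1 fell from cerebellum to hippocampus. Btg2, an antiproliferative cofactor, did not pass in any of the 3 comparisons of regions.

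Per kilobase of exon, Arc was the most abundant of the 10 in both forebrain regions. It reached 71.4 ± 74.5 CPM per kb in cortex (SD, n = 4, both genotypes) and 41.9 ± 20 in hippocampus (n = 4), but 5.26 ± 0.881 in cerebellum (n = 6), where it ranked in the middle. Dusp1 headed the cerebellar order at 10.5 ± 5.17 CPM per kb, and Bdnf was lowest there at 2.23 ± 0.469. In cortex Nr4a1 (21.4 ± 15.2) and Ier5 (14.8 ± 7.7) followed Arc, and Bdnf was again lowest at 3.96 ± 1.3. All neighbours in the cortical order differed by less than the larger of their 2 SDs. In hippocampus Nr4a3 (21.8 ± 5.38) and Nr4a2 (15.5 ± 3.86) followed Arc and Ier2 was last (2.14 ± 0.4). There Nr4a3 and Nr4a2 differed by more than the larger SD, and Nr4a2 and Nr4a1 did not. In cerebellum only the last step, from Ier5 (2.91 ± 0.585) to Bdnf, exceeded it. The place of Bdnf as the lowest gene depends on the length used. Per kb of the longest annotated transcript, Bdnf stood at 4.25, 3.57 and 3.66 in wild-type cerebellum 1 to 3. Ier5 stood at 2.34, 2.64 and 2.85 in these libraries. Bdnf also exceeded Ier5 in knockout cerebellum 3, but not in knockout 1 and 2. On that scale Bdnf exceeded Ier2 in each cortical library.

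**Figure D1:**
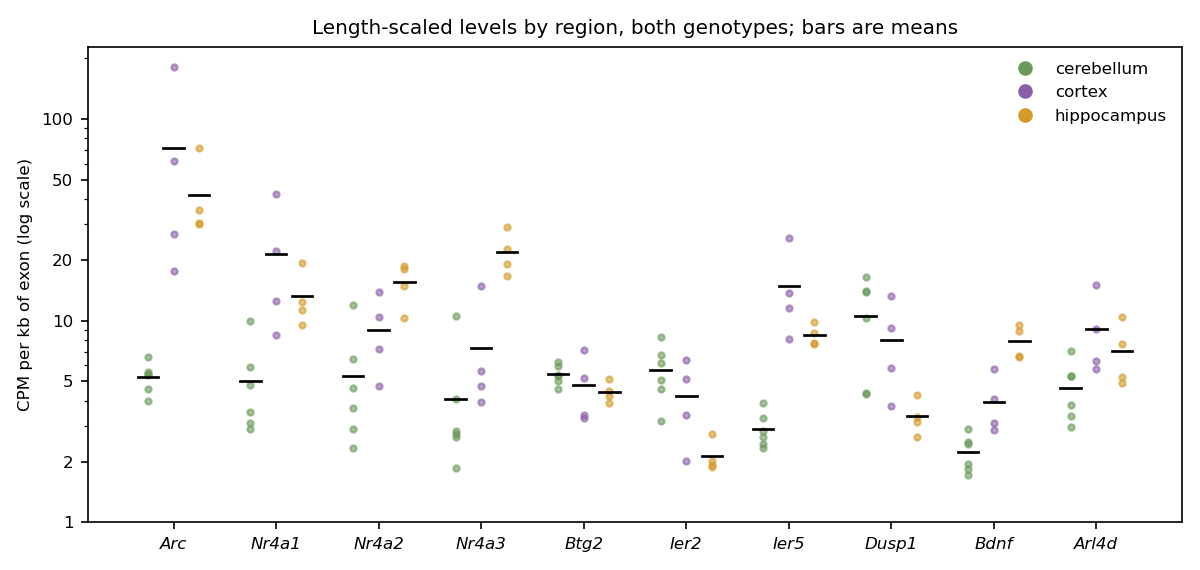
CPM per kb of exon (log scale) of each gene by region, 1 point per library and a bar at the mean over both genotypes (cerebellum n = 6, cortex n = 4, hippocampus n = 4). Arc stands highest in cortex and hippocampus, and Dusp1 and Ier2 fall from cerebellum to hippocampus.

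Averaged over genotypes, 5 of the 10 genes were higher in cortex than in cerebellum and none was lower. Over all 24680 tested genes 25.3% were higher and 23.0% lower (edgeR quasi-likelihood test, Benjamini-Hochberg adjusted p under 0.05). Arc was 9.84-fold higher (log2 fold change 3.30 ± 0.31, SE, edgeR adjusted p = 1.1e-05) and Ier5 4.79-fold (2.26 ± 0.18, edgeR adjusted p = 9.1e-07). The other 3 rose less: Nr4a1 by 1.91 ± 0.33, Arl4d by 0.93 ± 0.17 and Bdnf by 0.81 ± 0.13 on the log2 scale (edgeR adjusted p = 8.9e-04, 6e-04 and 3.2e-04). Nr4a2 and Nr4a3 had log2 fold changes of 0.82 ± 0.44 and 0.81 ± 0.47 and did not pass (edgeR adjusted p = 0.15 and 0.18). Without wild-type cerebellum 3 they did, at 1.17 ± 0.39 and 1.28 ± 0.35 (edgeR adjusted p = 0.036 and 0.015, ranges over alternatives 0.036 to 0.68 and 0.015 to 0.68). With library totals in place of TMM, the median over all tested genes moved to -0.19 and the share of calls that were higher fell from 52.4% to 38.2%. On that scale Ier2 (-0.70 ± 0.23, edgeR adjusted p = 0.023) and Btg2 (-0.43 ± 0.13, 0.014) also passed, both lower in cortex. Each also passed, lower in cortex, when certain libraries were left out: Ier2 without knockout cerebellum 2 (-0.62), wild-type cerebellum 1 (-0.61) or knockout cortex 2 (-0.73), and Btg2 without wild-type cortex 3 (-0.37). Over their alternatives these adjusted p-values ran from 0.023 to 0.65 for Ier2 and from 0.014 to 0.77 for Btg2.

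In hippocampus 7 of the 10 were higher than in cerebellum and 2 were lower, against 24.7% and 22.6% of all tested genes. Arc rose 7.65-fold (2.93 ± 0.30, edgeR adjusted p = 2.2e-05), and the neurotrophin Bdnf rose by 1.85 ± 0.13 on the log2 scale (edgeR adjusted p = 2.3e-07). All 3 Nr4a genes rose, Nr4a3 by 2.47 ± 0.47, Nr4a2 by 1.60 ± 0.44 and Nr4a1 by 1.39 ± 0.33. With wild-type libraries only, where 29.5% of 23806 genes passed, the 3 Nr4a genes and Arl4d did not (edgeR adjusted p = 0.13, 0.31, 0.1 and 0.12 for Nr4a3, Nr4a2, Nr4a1 and Arl4d). Dusp1 fell by 1.60 ± 0.35 and Ier2 fell by 1.40 ± 0.25 (edgeR adjusted p = 0.0034 and 4.9e-04). With library totals the higher share of all calls was 38.7% in place of 52.2%, the median over all genes was -0.18, and Arl4d (0.59 ± 0.17, edgeR adjusted p = 0.012 with TMM) no longer passed. Without wild-type hippocampus 3, Nr4a2 (1.33 ± 0.49, edgeR adjusted p = 0.061, range 0.0022 to 0.31) and Arl4d (0.46 ± 0.19, 0.083, range 0.004 to 0.12) did not pass either, nor did Arl4d without knockout hippocampus 1 (0.55 ± 0.20, 0.05).

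Between hippocampus and cortex 3 of the 10 passed, 1 higher and 2 lower, against 12% of all tested genes (5.49% higher, 6.48% lower). Bdnf was higher in hippocampus by 1.04 ± 0.15 (edgeR adjusted p = 5.4e-04), and Ier2 and Ier5 were lower by log2 fold changes of -0.89 ± 0.26 and -0.71 ± 0.20 (0.045 and 0.037). With wild-type libraries only none of these 3 passed (Bdnf 0.71 ± 0.22, edgeR adjusted p = 0.12), while Dusp1 did, lower in hippocampus (-1.55 ± 0.26, 0.013), as did 4.88% of 23806 genes. Neither Ier2 nor Ier5 passed when any 1 of the 4 hippocampal libraries, or wild-type cortex 3, was left out. Ier2 also missed without knockout or wild-type cortex 2, and Ier5 without knockout cortex 1. Their adjusted p-values reached 0.17 and 0.15 in these fits. With genotype and number as a random block (limma), Ier2 missed the threshold (-0.88 ± 0.29, limma adjusted p = 0.055, range over alternatives 0.013 to 0.17) and Nr4a3 passed (1.75 ± 0.40, limma adjusted p = 0.013, range 0.013 to 0.61). The same calls were made by limma voom without the block (0.073 for Ier2 and 0.024 for Nr4a3). In the fit with the block 14.9% of all tested genes passed, 7.41% higher and 7.5% lower in hippocampus.

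The 3 Nr4a genes bind the same DNA element, and their relative levels were compared within libraries. Of their summed level per kb, Nr4a1 made up 54.3% ± 15 in cortex, 36.3% ± 3.52 in cerebellum and 26.0% ± 5.13 in hippocampus (SD over libraries of both genotypes, n = 4, 6 and 4). Nr4a3 made up 43.2% ± 3.61 in hippocampus, 27.5% ± 3.67 in cerebellum and 18.9% ± 3.74 in cortex. The Nr4a3 shares did not overlap between hippocampus (39.3% to 48.0%) and either other region (at most 32.4%). Nr4a2 was at 36.2% ± 2.67, 26.8% ± 12.3 and 30.8% ± 4.96 in cerebellum, cortex and hippocampus. Within cortex its share ran from 14.9% to 42.4%, and the pooled order did not hold in each library. Nr4a1 had the largest share in wild-type cortex 2 and 3 (70.2% and 59.7%) and in knockout cortex 1 (52.8%), but in knockout cortex 2 Nr4a2 did (42.4%, against 34.6% for Nr4a1). That exception depends on the length used. Per kb of the longest annotated transcript, Nr4a2 and Nr4a1 were nearly level in knockout cortex 2, at 11.8 and 11.6 CPM.

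The comparison of genotypes asks whether loss of CARIP alters these transcripts in each region. By the test across all genes none of the 10 passed in any region. All 10 had negative log2 fold changes in the cortex and 9 of 10 in cerebellum and in hippocampus, and Arl4d was the gene whose knockout libraries lay below all wild-type libraries in every region. The following values are CPM per library, and every genotype difference is knockout against wild type.

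**Figure D2:**
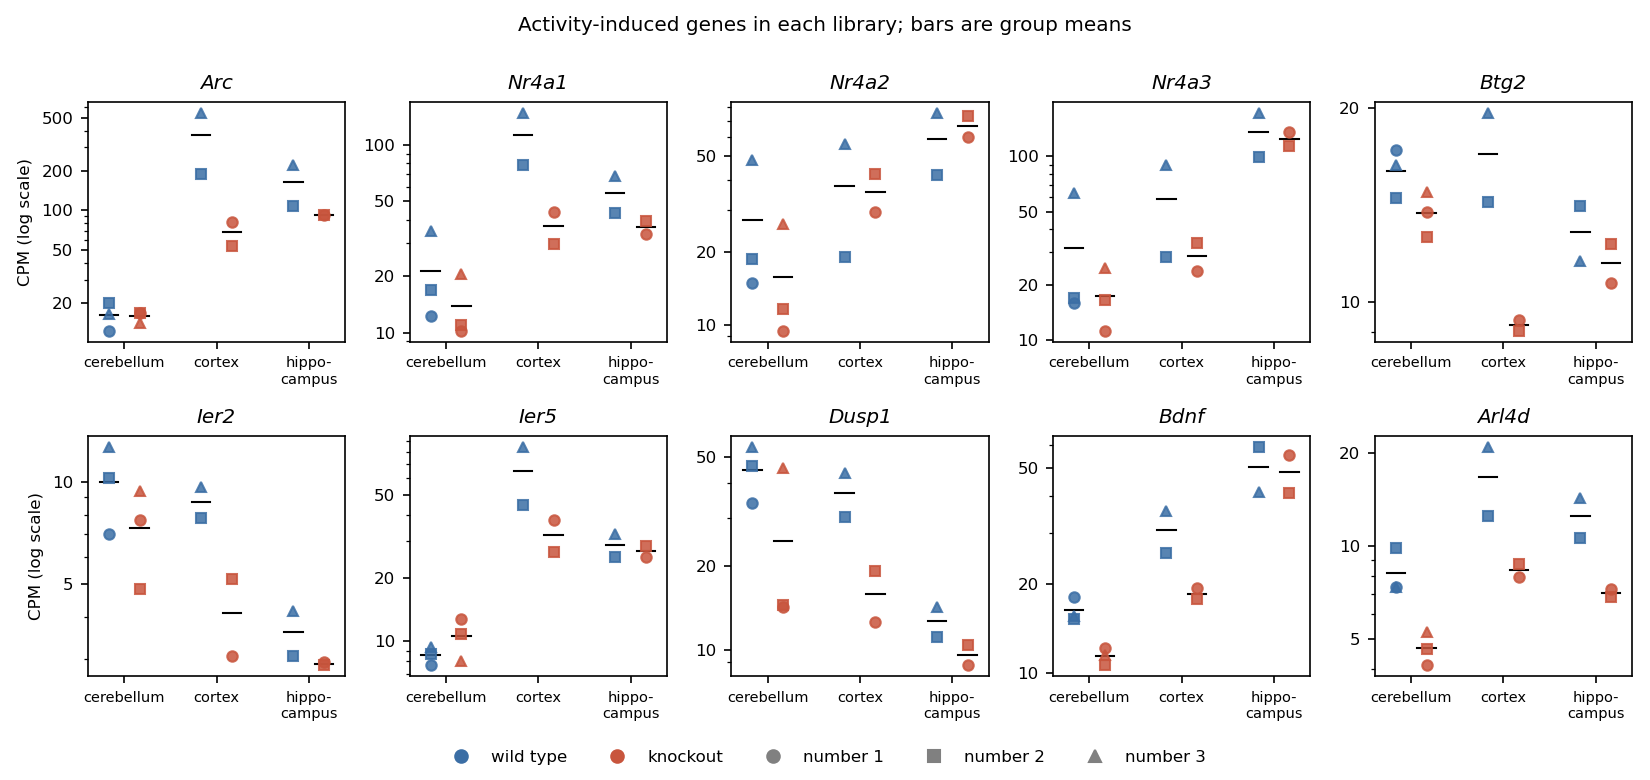
CPM (log scale) of the 10 genes in each library, by region, with wild type in blue, knockout in red, the number in the title as the symbol, and a bar at the group mean (n = 3 per genotype in cerebellum, n = 2 in cortex and hippocampus). Wild-type cortex 3 is the highest cortical library for every gene, and the Arl4d knockout libraries lie below the wild-type ones in all 3 regions.

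Arc differed most in size in cortex. The knockout cortical libraries 1 and 2 stood at 82.3 and 54.0 CPM, and the wild-type libraries 2 and 3 at 188 and 549 CPM. The genotypes did not overlap, and the wild-type libraries differed from each other by more than the lower one differed from the knockout. The log2 fold change was -2.44 ± 0.48 (SE), a ratio of wild type to knockout of 5.41, and it did not pass (edgeR adjusted p = 0.66). In hippocampus the knockout libraries were at 92.4 and 92.9 CPM and the wild-type libraries at 108 and 219. They did not overlap, and wild type 2 was close to the knockout (-0.82 ± 0.46, edgeR adjusted p = 1). In cerebellum Arc was at 16.9, 16.7 and 14 CPM in knockout libraries 1 to 3 and at 12.3, 20.1 and 16.4 in wild type. There the genotypes overlapped fully (-0.04 ± 0.39, edgeR adjusted p = 1).

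Nr4a1, also known as NUR77, had the same order of libraries as Arc in cortex. It was at 43.9 and 29.7 CPM in the knockout libraries and at 77.9 and 149 CPM in the wild-type ones. The genotypes did not overlap, with a log2 fold change of -1.63 ± 0.53 (edgeR adjusted p = 0.67). In hippocampus the knockout was at 33.6 and 39.5 CPM and the wild type at 43.4 and 68.2, again without overlap (-0.61 ± 0.52, edgeR adjusted p = 1). In cerebellum the values were 10.2, 10.9 and 20.6 CPM in the knockout libraries and 12.3, 16.9 and 34.9 in the wild-type ones. Library 3 was the highest of each genotype there, and the genotypes overlapped (-0.62 ± 0.43, edgeR adjusted p = 1).

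Nr4a2, also known as NURR1 and needed for the identity of dopamine neurons, overlapped between genotypes in every region. In cortex it was at 29.4 and 42.1 CPM in the knockout, between the wild-type libraries at 19.2 and 56.1 (-0.07 ± 0.69, edgeR adjusted p = 0.98). In hippocampus the knockout stood at 60.4 and 73.6 CPM, again between the wild-type values of 41.8 and 76.0 (0.19 ± 0.69, edgeR adjusted p = 1). Wild type 2 was the lowest and wild type 3 the highest library in both regions. In cerebellum the knockout was at 9.46, 11.7 and 26.3 CPM and the wild type at 15, 18.7 and 48.2. The genotypes overlapped, and each knockout library lay below the wild-type library of its number (-0.79 ± 0.57, edgeR adjusted p = 1).

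Nr4a3 was the NR4A gene with the highest hippocampal level. There the knockout was at 135 and 114 CPM, between the wild-type values of 99.1 and 173 (-0.13 ± 0.72, edgeR adjusted p = 1). In cortex the knockout stood at 23.7 and 33.8 CPM and the wild type at 28.2 and 89.1, so that wild type 2 fell among the knockout libraries (-1.03 ± 0.74, edgeR adjusted p = 0.72). In cerebellum the knockout values were 11.2, 16.4 and 24.5 CPM and the wild-type values 15.8, 17.0 and 62.7. Wild type 3 alone was above all knockout libraries there (-0.88 ± 0.61, edgeR adjusted p = 1). Without the wild-type libraries numbered 3, the Nr4a3 log2 fold change was above 0 in each region, at 0.08, 0.03 and 0.33 in cerebellum, cortex and hippocampus.

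Btg2 had narrow spreads. In cortex it was at 9.38 and 9.02 CPM in the knockout libraries and 14.3 and 19.7 in the wild-type ones, without overlap (-0.89 ± 0.19, edgeR adjusted p = 0.66). In cerebellum the knockout stood at 13.8, 12.6 and 14.8 CPM and the wild type at 17.2, 14.5 and 16.3, where knockout 3 lay just above wild type 2 (-0.22 ± 0.16, edgeR adjusted p = 1). In hippocampus 10.7 and 12.3 CPM in the knockout overlapped 14.1 and 11.6 in wild type (-0.16 ± 0.19, edgeR adjusted p = 1). Hippocampus is the region in which wild type 3 was below wild type 2.

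Ier2, which encodes a nuclear protein of the immediate early response, was the least abundant of the 10 in hippocampus, with 66 to 106 reads per library. The knockout was at 2.94 and 2.88 CPM there and the wild type at 3.06 and 4.17, without overlap, the nearest libraries holding 66 and 73 reads (-0.31 ± 0.38, edgeR adjusted p = 1). In cortex it stood at 3.06 and 5.17 CPM in the knockout libraries and at 7.82 and 9.67 in the wild-type ones, without overlap (-1.08 ± 0.37, edgeR adjusted p = 0.67). In cerebellum it was at 7.70, 4.84 and 9.38 CPM in the knockout libraries and at 7.02, 10.3 and 12.7 in the wild-type ones. These overlapped, since knockout libraries 1 and 3 exceeded wild type 1 (-0.46 ± 0.29, edgeR adjusted p = 1).

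Ier5, which encodes a partner of heat shock factor 1 and of the phosphatase PP2A, was the 1 gene with a positive cerebellar difference. It was at 12.7, 10.8 and 8.07 CPM in the knockout cerebellum and at 7.68, 8.63 and 9.34 in wild type, overlapping, with the highest value in knockout 1 (0.30 ± 0.24, edgeR adjusted p = 1). In cortex the knockout was at 37.6 and 26.6 CPM and the wild type at 44.8 and 84.5, without overlap (-1.01 ± 0.29, edgeR adjusted p = 0.66). In hippocampus the knockout was at 25.2 and 28.4 CPM and the wild type at 25.3 and 32.4 (-0.11 ± 0.28, edgeR adjusted p = 1). Knockout 2 lay between the wild-type libraries there.

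Dusp1 divided the cerebellar knockout libraries. Libraries 1 and 2 were at 14.3 and 14.5 CPM, and library 3 was at 45.5, while the wild-type libraries were at 34.0, 46.4 and 54.3. Knockout 3 therefore sat inside the wild-type range and the other knockout libraries well below it (-0.86 ± 0.42, edgeR adjusted p = 1). In cortex the knockout was at 12.6 and 19.3 CPM and the wild type at 30.3 and 43.6, without overlap (-1.21 ± 0.51, edgeR adjusted p = 0.68). In hippocampus the values were 8.78 and 10.4 CPM against 11.1 and 14.2, also without overlap (-0.39 ± 0.52, edgeR adjusted p = 1).

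Bdnf differed little within groups in cerebellum. It was at 12.1, 10.6 and 11.5 CPM in the knockout libraries and at 18.1, 15.2 and 15.6 in the wild-type ones. The genotypes did not overlap, with a log2 fold change of -0.52 ± 0.17 (edgeR adjusted p = 1). In cortex the knockout was at 19.4 and 17.8 CPM and the wild type at 25.6 and 35.7, without overlap (-0.72 ± 0.21, edgeR adjusted p = 0.66). In hippocampus, where Bdnf was most abundant, the knockout was at 55.5 and 41.0 CPM and the wild type at 59.1 and 41.4. The libraries numbered 2 of the wild type and 1 of the knockout were high and the others low, and the genotypes overlapped (-0.06 ± 0.21, edgeR adjusted p = 1).

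Arl4d, the small GTPase, did not overlap between genotypes in any region. In cerebellum it was at 4.11, 4.65 and 5.26 CPM in the knockout libraries and at 7.37, 9.83 and 7.34 in the wild-type ones. In cortex it was at 7.94 and 8.70 CPM against 12.5 and 20.9, and in hippocampus at 7.22 and 6.80 against 10.6 and 14.3. The knockout libraries were below the wild-type libraries in all 3 regions, as for 65 of the 24680 tested genes (0.263%). Log2 fold changes were -0.81 ± 0.22, -1.01 ± 0.26 and -0.83 ± 0.27 in cerebellum, cortex and hippocampus, ratios of wild type to knockout of 1.75, 2.01 and 1.77 (edgeR adjusted p = 1, 0.66 and 1). Its counts were modest, 93 to 549 reads per library.

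**Figure D3:**
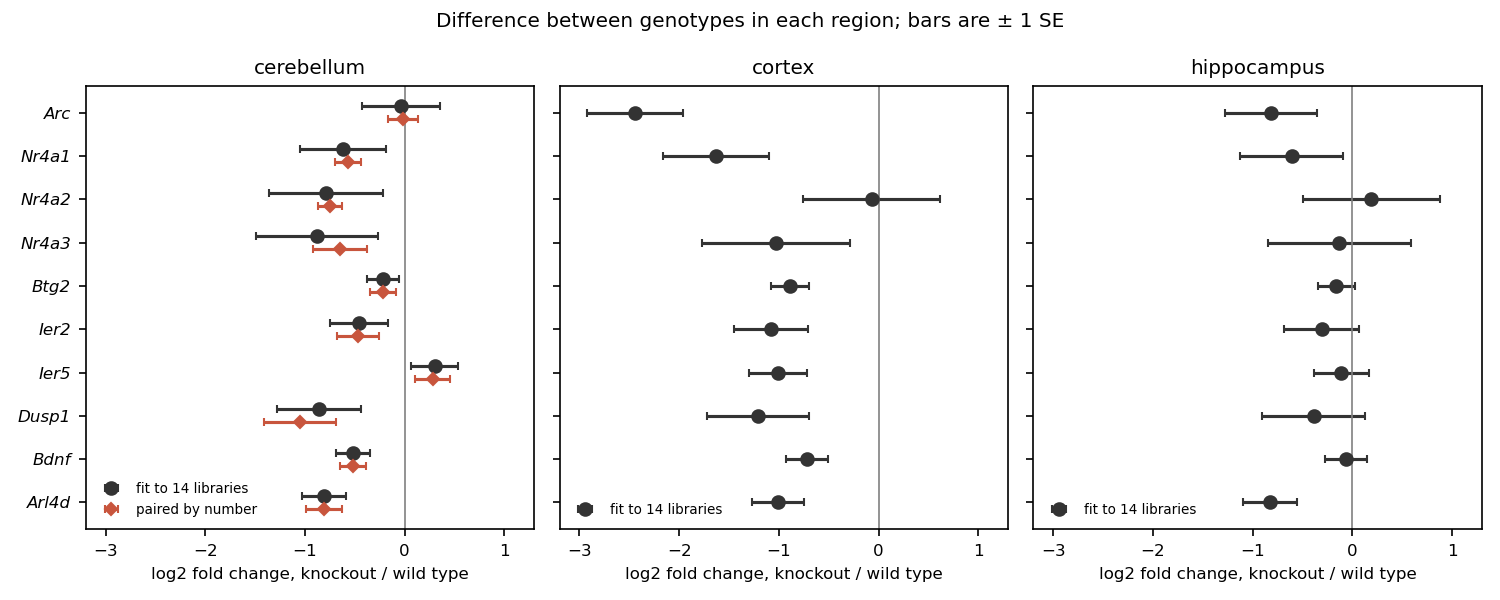
Log2 fold change of knockout against wild type for each gene in each region, with bars of ± 1 SE, from the fit to all 14 libraries (black) and, for cerebellum, from the fit that pairs libraries by number (red). Cortical values run from -2.44 for Arc to -0.07 for Nr4a2, and Ier5 in cerebellum and Nr4a2 in hippocampus lie above 0.

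The genes were chosen with earlier results of these data known. Counts over the list, here and below, therefore describe it and do not test whether it differs from all genes. In cortex 8 of the 10 genes had knockout libraries below both wild-type libraries, all but Nr4a2 and Nr4a3, where 13.3% of all tested genes did. In hippocampus 5 did (Arc, Nr4a1, Ier2, Dusp1 and Arl4d) against 18.6%, and in cerebellum 2 did (Bdnf and Arl4d) against 4.52%. No gene of the 10 had knockout libraries above all wild-type ones in any region, against 14%, 18.1% and 4.78% of all tested genes. The median log2 fold change over the list was -1.02 in cortex, -0.57 in cerebellum and -0.24 in hippocampus, beside 0.02, -0.01 and 0.00 over all genes. In edgeR 0.0% of all tested genes passed in each region, and 0 of the 10, while 785, 1825 and 472 of all genes in cerebellum, cortex and hippocampus had an unadjusted p under 0.05. At an unadjusted p under 0.05 the list had 8 genes in cortex, 2 in cerebellum and 1 in hippocampus, all lower, against 2.88%, 1.71% and 0.798% of all genes lower. DESeq2 called 2 of the 10 in cortex, Arc (-2.45 ± 0.43, DESeq2 adjusted p = 9e-05, range over alternatives 9e-05 to 1) and Btg2 (-0.91 ± 0.21, 0.02, range 0.02 to 1), and none in the other regions. Over all genes DESeq2 called 2 higher in cerebellum, 33 higher and 17 lower in cortex and 2 lower in hippocampus, and limma voom called none.

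The wild-type libraries numbered 3 held the highest value in 23 of the 30 combinations of gene and region, against 21.9% of combinations over all tested genes. In cortex this was so for all 10 genes, in hippocampus for 8 and in cerebellum for 5 (the 3 Nr4a genes, Ier2 and Dusp1). The lowest value of a region was in a knockout library in 25 of the 30, against 48.5% of combinations over all tested genes. All 10 genes were read in the same libraries, so the 30 combinations are not independent observations. Without those 3 wild-type libraries, an alternative chosen after the data were seen that leaves 1 wild-type library in each forebrain region, 8 of 10 genes had negative values in cerebellum, 8 in cortex and 7 in hippocampus, and the medians were -0.15, -0.62 and -0.21. Arc was then at -1.47 in cortex and -0.22 in hippocampus, and Ier5 at -0.48 in cortex. Arl4d was at -0.89, -0.59 and -0.59 in cerebellum, cortex and hippocampus and Bdnf at -0.55, -0.46 and -0.30. None of the 10 passed there.

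Marker genes moved with some of these libraries. In cortex, leaving out knockout library 1 keeps only knockout library 2, the one with high striatal, choroid and oligodendrocyte markers. In that fit Arc (-2.77 ± 0.69, edgeR adjusted p = 0.039), Btg2 (-0.91 ± 0.24, 0.03, range 0.02 to 1) and Ier5 (-1.28 ± 0.35, 0.039, range 0.039 to 1) passed, as did 1395 genes higher and 1610 lower of 25788. Without knockout library 2 all 10 genes were negative, with a median of -1.19, and none passed (edgeR, 0 of 25735 genes, 625 at an unadjusted p under 0.05). The 12 excitatory neuron markers summed to 6630 and 5100 CPM in the cortical knockout libraries and to 6520 and 5900 in wild type. In cerebellum, 6 meningeal fibroblast markers summed to 48.3 to 57.3 CPM in the knockout and 83.6 to 90.1 in wild type, without overlap, as for Bdnf and Arl4d, and all 6 were lower (median log2 fold change -1.03). Summed excitatory neuron markers were also lower without overlap there (551 to 586 CPM against 646 to 655). So were thalamic neuron markers (789 to 815 against 860 to 962) and astrocyte markers (2200 to 2340 against 2420 to 2540). Striatal markers were higher without overlap (414 to 476 against 331 to 370). In hippocampus, 6 erythroid markers summed to 143 and 95.9 CPM in knockout libraries 1 and 2 and to 304 and 266 in wild-type libraries 2 and 3, and all 6 were lower (median -1.42). These genotypes did not overlap, as for Arc, Nr4a1, Ier2, Dusp1 and Arl4d there. Erythroid markers in cortex summed to 257 and 211 CPM in the knockout libraries and to 324 and 308 in wild type, also without overlap. Markers of choroid plexus reached 1750 CPM in wild-type hippocampus 2, against 223 to 333 in the other hippocampal libraries. Oligodendrocyte markers in hippocampus stood at 2970 and 3990 CPM against 5300 and 4500, all 8 lower (median -0.70). The part of these markers in the results was not tested.

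**Figure D4:**
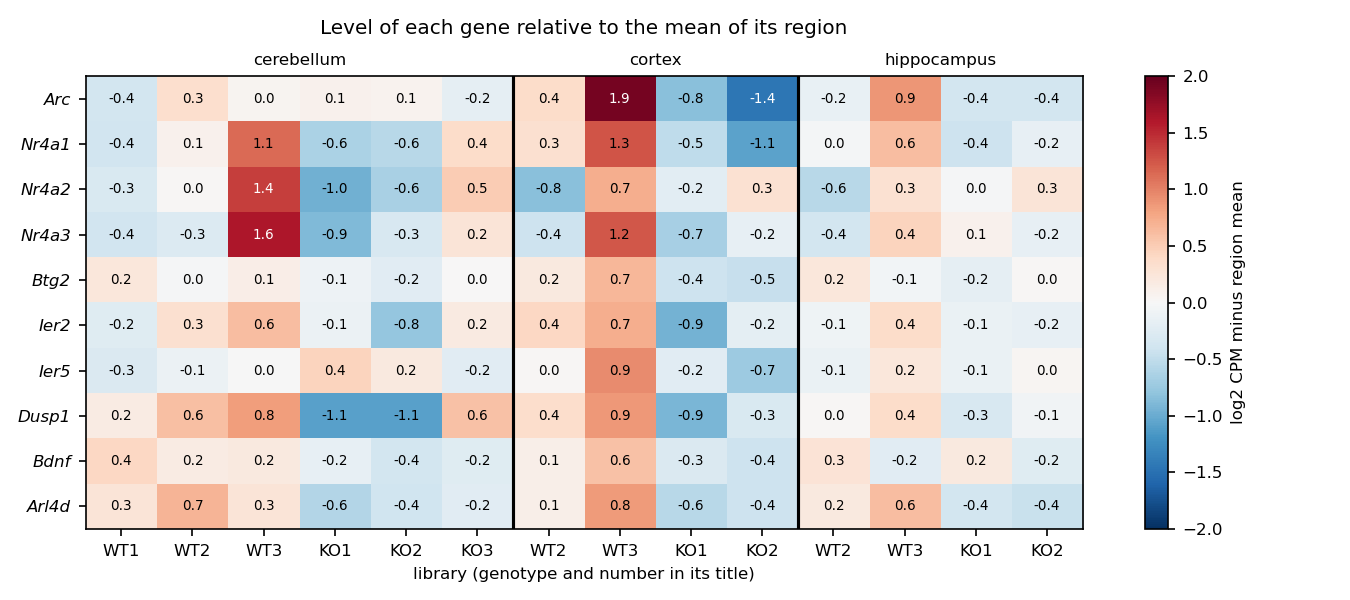
Log2 CPM of each gene minus its mean over the libraries of the region, with red above and blue below 0 and each cell labelled with its value (WT wild type, KO knockout, with the number of the library). The column of wild-type cortex 3 is above 0 for every gene, as are those of wild-type cerebellum 3 and hippocampus 3 for most.

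Cerebellar libraries of both genotypes carry the numbers 1 to 3, and they were also compared as pairs. The check described with the processing does not settle this pairing. Matched numbers 1 and 3 correlated by 0.33 and 0.41, and the crossed pairs of these numbers by 0.38 and 0.50. Values of the paired fit therefore hold only if the numbers mark true pairs. In that fit Nr4a2 fell by 0.75 ± 0.12 (edgeR adjusted p = 0.0075, range over alternatives 0.0075 to 1), and the other 9 genes did not pass. Over all tested genes 0.348% fell, 0.0729% rose and 0.421% passed in either direction. Markers of other cell types also fell in the paired fit, among them Aqp4 (-0.80 ± 0.09, edgeR adjusted p = 7.6e-04) and Gja1 (-0.58 ± 0.08, 0.002) of astrocytes. So did Col1a1 (-1.44 ± 0.16, 7.6e-04) of meningeal fibroblasts and Ugt8a (-0.79 ± 0.13, 0.033) of oligodendrocytes. Aldoc and Slc1a3, the most abundant genes of the astrocyte list, did not pass. Without pairing they stood at 0.04 ± 0.16 and -0.01 ± 0.14 in cerebellum. No gene on the cell type lists passed as higher. The ratio of knockout to wild type for Nr4a2 was 0.631, 0.627 and 0.545 in numbers 1, 2 and 3. Nr4a1 had ratios of 0.830, 0.645 and 0.592 (-0.57 ± 0.13, edgeR adjusted p = 0.085), and Arl4d 0.558, 0.473 and 0.716 (-0.81 ± 0.18, 0.08). Bdnf had ratios of 0.668, 0.698 and 0.734 (-0.52 ± 0.13, edgeR adjusted p = 0.12). Dusp1 ratios spread from 0.312 to 0.839, and those of Ier2, Ier5 and Arc fell on both sides of 1. The labels do not say what a number stands for.

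Whether the knockout effect itself differed between regions was tested by the interaction terms of the same fit. None of the 10 passed in any of the 3 contrasts, and neither did any of all tested genes (edgeR, 0.0%). An unadjusted p under 0.05 was reached by 3, 0 and 4 of the 10 and by 1309, 368 and 782 of all genes for cortex against cerebellum, hippocampus against cerebellum and hippocampus against cortex. DESeq2 and limma voom called 0 genes in each. Between cortex and cerebellum the effect differed by -2.40 ± 0.61 for Arc and by -1.31 ± 0.37 for Ier5 (edgeR adjusted p = 0.79 for both). The Arc difference between hippocampus and cortex was 1.62 ± 0.66 (edgeR adjusted p = 0.93).

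Averaged over the 3 regions, all 10 genes had negative values, with a median of -0.54 beside 0.00 over all genes, and none passed (limma with genotype and number as a random block, 0.0% of all tested genes). Arl4d had the smallest p of the 10 (-0.85 ± 0.17, limma adjusted p = 0.34), followed by Btg2 (-0.41 ± 0.12, 0.89), Arc (-1.01 ± 0.30, 0.91), Nr4a1 (-0.89 ± 0.27, 0.91) and Bdnf (-0.43 ± 0.13, 0.91). At an unadjusted p under 0.05 there were 7 of the 10, all lower, and 1085 of all genes, with 2.02% of all tested genes lower. DESeq2 without the block called Arl4d (-0.89 ± 0.16, DESeq2 adjusted p = 5.5e-05, range over alternatives 5.5e-05 to 1) and Arc (-1.10 ± 0.23, 0.0021, range 0.0021 to 1), where it called 48 genes higher and 33 lower of 24607 (0.329%). Nr4a2 (-0.10 ± 0.34, limma adjusted p = 1) was nearest to 0, and without the wild-type libraries numbered 3 it stood at 0.46.

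Other genes of the activity response were read from lists. Of 14 rapid transcription factors, among them Fos, Junb and Egr1, 12 had negative values in cortex with a median of -0.70, and 9 and 8 in cerebellum and hippocampus (medians -0.26 and -0.11). Egr1 was at -1.21 ± 0.30 in cortex and Jun at 0.33 ± 0.26 (edgeR adjusted p = 0.66 and 0.73). Of 20 signalling and feedback genes, 15, 15 and 14 were negative in cerebellum, cortex and hippocampus, with medians of -0.27, -0.59 and -0.25. The clock and early gene Per1 was at -0.62 ± 0.19, -0.78 ± 0.23 and -0.35 ± 0.23, and the kinase Plk2 at 0.08 ± 0.15, -0.32 ± 0.18 and -0.28 ± 0.18. Of 15 delayed effectors, genes that follow hours after activity, 11, 9 and 8 were negative, with medians of -0.10, -0.21 and -0.02. The Ras activator Rasgrp1 and the potassium channel Kcna1, the most abundant of them, were at 0.00 ± 0.12 and 0.21 ± 0.12 in cortex. None of the genes on these 3 lists passed without pairing, in any region (edgeR) or averaged over regions (limma with the block). With cerebellar pairing by number, which the check did not settle, Fos (-1.0 ± 0.17, edgeR adjusted p = 0.025), Jun (-0.59 ± 0.11, 0.033) and Per1 (-0.62 ± 0.08, 0.0019) fell.

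Lists of relatives were read in the same way. Of 7 tested neurotrophins and receptors, 6, 1 and 2 were negative in cerebellum, cortex and hippocampus (medians -0.16, 0.22 and 0.11). In cortex Ntrk2, the BDNF receptor TrkB, was at 0.14 ± 0.16 and Ntrk3 at -0.17 ± 0.18. Of the 4 relatives of Btg2, 4, 1 and 1 were negative in the same order of regions (medians -0.16, 0.10 and 0.10), and in cortex Btg1 was at 0.09 ± 0.24 and Tob2 at -0.05 ± 0.21. In cerebellum Tob2 was at -0.56 ± 0.17 (edgeR adjusted p = 1), and in the paired fit it fell by 0.56 ± 0.08 (0.005). Ier3 and Ier5l were at 0.18 ± 0.37 and -0.45 ± 0.58 in cortex. Of 14 glucocorticoid-responsive genes, read because Dusp1 belongs to that response too, 8, 6 and 7 were negative in cerebellum, cortex and hippocampus (medians -0.06, 0.22 and 0.00). In cortex Klf9 was at -0.14 ± 0.14 and Mt1 at 1.19 ± 0.44. In the paired cerebellum Sgk1 (-0.67 ± 0.09, edgeR adjusted p = 0.0033), Nfkbia (-0.64 ± 0.13, 0.041) and Per1 fell, and Plin4 rose (0.64 ± 0.09, 0.0043). None of these passed without pairing.

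The genes whose library-to-library pattern was most like that of Arc and of Nr4a1 were sought among 16343 genes with a mean log2 CPM of at least 1. Likeness was the root mean square difference between log2(CPM + 0.5) profiles over 14 libraries, each centred on its region. For Arc the nearest were Egr1 (0.36), Tnfrsf25 (0.37), Junb (0.38), Egr2 (0.42) and 1500035N22Rik (0.44), where the Arc profile itself had a root mean square of 0.75. Among the other members Ier5 (0.46) and Nr4a1 (0.47) were the nearest to Arc and Nr4a2 (0.89) the farthest. Without wild-type cortex 3 only Egr1 remained among the 5. For Nr4a1 the nearest was 1700016P03Rik (0.15, against its own root mean square of 0.64), then Gm37036 (0.31), Egr4 (0.32), Dusp5 (0.35) and Apold1 (0.37). The noncoding 1700016P03Rik (chromosome 11, 75172560 to 75177633, plus strand) spans the microRNA genes Mir212 and Mir132, and its exons overlap antisense Ovca2 over 641 bp. It was at 2.12 and 1.19 CPM in the cortical knockout libraries and at 5.82 and 11.2 in wild type, the order of libraries seen for Nr4a1. In cerebellum 1700016P03Rik ran only from 0.31 to 2.43 CPM, and Tnfrsf25, near Arc, from 0.309 to 1.02. At such low levels the added 0.5 narrows the differences between libraries. Without wild-type cortex 3, 1700016P03Rik, Egr4 and Gm37036 remained among the 5. These profiles share libraries and depth, so the values are descriptions.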

How the data were processed

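The deposited table holds whole-number counts of reads for 48440 genes, without any scaling by the authors, in 14 columns that match the libraries by title. The submitters' processing notes name Trim Galore 0.6.4, cutadapt 2.10, STAR 2.7.3a, featureCounts 2.0.1 and the build GRCm38.p6 (mm10). Which annotation release was used, whether counting used strand and how reads that map to several places were treated: not given in the sources used here. Symbols and coordinates came from GENCODE M21 (48058 of 48440 identifiers matched, version ignored).

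Genes were filtered with filterByExpr (24680 kept) and libraries scaled by TMM. Genotypes, interactions and regions were tested with edgeR 4.0.16 (R 4.3.3, robust quasi-likelihood test, 6 groups of region and genotype in 1 fit with 8 degrees of freedom left, and 24.7% as the coefficient of biological variation). The average effect was tested with limma 3.58.1 (voom, statmod 1.5.0) with genotype and number as a random block (correlation 0.0962). Adjusted p-values are Benjamini-Hochberg over all tested genes, threshold 0.05. The edgeR script was tested on simulated data. Levels per kb used the union of exons. DESeq2 1.42.0, limma without the block, other scalings and filters and leaving out libraries were alternatives.

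All 10 genes are named in each comparison. Of the lists of activity-induced genes, relatives and glucocorticoid-responsive genes, up to 4 passing genes, or else some of the most abundant, are named. For likeness the 5 nearest genes are named. Lists of cell type markers are given mainly as sums and medians, and not all their passing genes are named. The genes and lists were chosen with earlier results of these data known.

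Deviations from the group mean in cerebellum correlated across 16482 genes by 0.33, 0.80 and 0.41 for numbers 1, 2 and 3, all over the bound of 0.1, so a paired fit is given. Pairs with unequal numbers reached similar values, 0.38 for wild type 3 with knockout 1 and 0.50 for wild type 1 with knockout 3, and what a number stands for is not in the labels. Cortex and hippocampus share only number 2 between genotypes.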

Additional observations from a re-analysis of the deposited data

How the results depend on the processing

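Single genotype differences kept direction and side of the threshold in 570 of the alternative values, turned sign in 22 and newly passed in 8. Region differences did so in 475, turned in 4, newly passed in 15 and ceased to pass in 26. The cause of these shifts was not tested. With the cerebellar libraries paired by number 1 of the 10 genes passed (Nr4a2), and with no pairing 0. With genotype and number as a random block, Ier2 ceased to pass and Nr4a3 passed between hippocampus and cortex, as they did with limma voom and no block, and no other call differed from edgeR. DESeq2 called 2 of the 10 in cortex, 2 for the average effect and 5 between hippocampus and cortex, against 0.203%, 0.329% and 14.9% of 24607 genes. With wild-type libraries only, 5 passed between hippocampus and cerebellum (Arc, Ier2, Ier5, Dusp1 and Bdnf, against 29.5% of 23806 genes) and 1 (Dusp1) between hippocampus and cortex (against 4.88%), and Btg2 between cortex and cerebellum was at 0.09. Leaving out 1 library gave 0 to 3 calls in cortex, 0 to 1 for the cortical against the cerebellar effect (Ier5, without knockout cortex 1, where 6.01% of 25788 genes passed) and 1 to 2 between hippocampus and cortex, where Bdnf passed each time 1 library was left out.

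Arc in cerebellum was at 0.02 with library totals and Nr4a2 in cortex at 0.11 with limma voom. Over libraries left out 1 at a time, cerebellar values ran from -0.20 to 0.15 for Arc and -1.20 to 0.08 for Nr4a3. Cortical values ran from -0.64 to 0.90 for Nr4a2 and -1.62 to 0.03 for Nr4a3. Hippocampal values ran from -0.18 to 0.68 for Nr4a2, -0.48 to 0.33 for Nr4a3, -0.27 to 0.08 for Ier5 and -0.30 to 0.22 for Bdnf. Between hippocampus and cortex they ran from -0.67 to 0.12 for Arc and -0.15 to 0.08 for Btg2, and for the average effect of Nr4a2 from -0.34 to 0.12. Without wild-type number 3 in all regions, Nr4a2 was at 0.90 in cortex and 0.46 on average, Nr4a3 at 0.08, 0.03, 0.33 and 0.13 in cerebellum, cortex, hippocampus and on average, and Ier5 at 0.08 in hippocampus.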

Other observations

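Levels of genes on the wider activity lists also differed between regions. Of the 14 rapid transcription factors 9 were higher in cortex than in cerebellum and none was lower (edgeR, median log2 fold change 2.1), and 9 were higher in hippocampus (median 1.62). Of the 20 signalling and feedback genes 11 were higher and 6 lower in cortex than in cerebellum (median 0.48). Of the 15 delayed effectors 8 were higher and 1 lower there (median 1.11). Between hippocampus and cerebellum 7 of the 20 signalling and feedback genes were higher and 4 lower (median 0.1). In that comparison 7 of the delayed effectors were higher and 3 lower (median 1.13). Over all tested genes 25.3% were higher and 23.0% lower in cortex than in cerebellum, and 24.7% higher and 22.6% lower in hippocampus. Of the 7 tested neurotrophins and receptors 3 were higher and 2 lower in cortex, and of the 4 relatives of Btg2 1 was higher and 3 lower. Of the 14 glucocorticoid-responsive genes 3 were higher and 2 lower in cortex.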
